A study of Homo sapiens with 54 samples.

Results

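The 84 genes described here encode the proteins of the cytosolic ribosome. They were chosen by symbol alone: every row of both count tables whose symbol was RPS or RPL followed by a number and at most a letter and a digit, together with RPLP0, RPLP1, RPLP2 and RPSA. Of 33119 genes in the tables, 32 carried a small subunit (RPS) symbol and 52 a large subunit (RPL) symbol that met this rule. The rule used no measured value. RNA was taken from 6 established human cancer cell lines, SW48 and SW620 (colorectal), NCI-N87 and MKN-45 (stomach) and BT-20 and BT-474 (breast), grown in culture with or without 1 kinase inhibitor. Sequencing read the end of each transcript (QuantSeq, Lexogen, from 500 ng of total RNA). The 54 libraries form 18 groups of 3 in 2 sets. Set 1 (12 libraries) holds SW48 with trametinib and its controls, and SW620 with trametinib and its controls. Set 2 (42 libraries) holds SW48 and SW620 with trametinib, with palbociclib and as controls, and NCI-N87, MKN-45, BT-20 and BT-474 with afatinib and as controls. Trametinib blocks the kinases MEK1 and MEK2, palbociclib blocks the cell cycle kinases CDK4 and CDK6, and afatinib blocks EGFR and ERBB2. Dose and exposure time are not in the labels. Nor do these say whether a group's 3 libraries are separate cultures, and every p-value then rests on a spread that may be technical.

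Each ribosome carries 1 copy of nearly every one of these proteins, and growing cells make them in matched amounts. Their mRNAs are among the most abundant in a dividing cell. Most begin at the cap with a C followed by an unbroken stretch of pyrimidines, the terminal oligopyrimidine (TOP) motif, through which mTORC1 and the protein LARP1 adjust their translation and stability. MYC raises the transcription of many of them. A few members also act outside the ribosome: RPL5 and RPL11 bind and restrain MDM2 when ribosome assembly is disturbed. Several have a paralog that can replace the usual protein or is used in particular tissues, such as RPL22L1 for RPL22 and RPS27L for RPS27.

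The bases around the annotated start of transcription are shown for 10 members whose counts are described below, to let the TOP motif be read beside the changes. Each line holds 10 bases before the start and 20 from the start on, read on the gene's own strand, so it spans the end of the promoter and the beginning of the first exon. The sequences are RefSeq's, of build GRCh38.p14. Capitals mark pyrimidines (C or T, on the sense strand only) that run unbroken, for at least 5 bases, from a C within 3 bases of the start. Pyrimidines just before that C are left in lower case, so the whole stretch may begin further upstream. RPL12 and RPL36 were lower with trametinib in both sets of SW48 and lie at chr9:127451387-127451416 (minus strand) and chr19:5690285-5690314 (plus strand). RPL7A, RPS27 and RPL39 were higher with trametinib in SW48 of set 2 and lie at chr9:133348208-133348237 (plus), chr1:153990752-153990781 (plus) and chrX:119791611-119791640 (minus). RPS7 was the lowest member with palbociclib in both lines that received it and lies at chr2:3575250-3575279 (plus). RPL22, RPL22L1, RPS27L and RPL7L1 are shown as parents and paralogs. They lie at chr1:6199576-6199605 (minus), chr3:170870176-170870205 (minus), chr15:63157458-63157487 (minus) and chr6:42879606-42879635 (plus).
RPL12: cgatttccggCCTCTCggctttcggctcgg
RPL36: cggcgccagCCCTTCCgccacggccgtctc
RPL7A: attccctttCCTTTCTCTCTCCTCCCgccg
RPS27: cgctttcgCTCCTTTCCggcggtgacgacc
RPL39: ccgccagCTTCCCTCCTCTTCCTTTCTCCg
RPS7: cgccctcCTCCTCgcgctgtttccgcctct
RPL22: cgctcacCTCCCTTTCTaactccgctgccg
RPL22L1: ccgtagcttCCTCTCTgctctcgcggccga
RPS27L: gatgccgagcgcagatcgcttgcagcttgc
RPL7L1: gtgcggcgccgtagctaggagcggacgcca
RPL39 and RPL7A hold the longest capital runs of these 10, and the windows of RPS27L and RPL7L1 hold none. Members without a run were also among those that changed most. RPS29 (lower in SW48 of set 1), RPS15 (higher in SW48 of set 2) and RPL4 (lower with palbociclib) are not shown. None of these held a run at its listed start. Of the 84 members, 67 had an entry in the start table, and 53 of these (79.1%) held such a run at a listed start, against 4374 of all 27305 genes in the table (16.02%). Counted from the first transcribed base exactly, the run was present in 47 members (70.1%) and in 5.14% of all genes. A run in a window describes the letters only, and annotated starts can differ from those the cells use.

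The libraries held between 3401565 and 12806042 gene counts in set 2 and between 4063382 and 10622670 in set 1. Members took 8.24% to 16.2% of these counts in set 2 and 9.10% to 14.4% in set 1. Near-identical processed pseudogenes named in the tables held at most 0.893% as many counts as the members. In set 1, reads without a unique alignment were listed apart and given to no gene. For set 2, how reads were divided between pseudogenes and genes is not given in the sources used here. Of the 12 libraries of set 1, 11 were most like the set 2 controls of their own line by log2 CPM over 7703 genes. The exception was SW48 trametinib set 1 replicate 2, whose correlation was 0.792 with SW48 and 0.799 with NCI-N87. All 3 SW48 libraries with trametinib in set 1 were about as close to another line, at 0.792 to 0.810 with SW48 and 0.799 to 0.806 with the nearest other line, while the SW48 controls of set 1 had 0.880 to 0.899 and 0.781 to 0.794. SW620 control set 1 replicate 3 stood apart from the other 5 SW620 libraries of set 1, with a correlation of 0.831 to the SW620 controls of set 2 against 0.942 to 0.951. Markers also differed between the sets: ERBB2 was at 901 to 988 CPM in the SW48 controls of set 1 and at 93.8 to 108 CPM in those of set 2. CDX2, an intestinal transcription factor, was at 1.80 to 3.64 CPM in the SW620 controls of set 1 and at 29.2 to 31.7 CPM in those of set 2. GATA3, a transcription factor of breast epithelium, was at 57.8 to 88.8 CPM in the SW620 controls of set 1 and at 4.96 to 6.29 CPM in those of set 2. PGR, the progesterone receptor, was at or under 0.753 CPM with trametinib and at 0.208, 115 and 179 CPM in controls in SW620 set 1, and at 49.9 CPM in 1 of the 3 SW48 controls of set 1. Whether the sets held other stocks or mixed cultures was not tested. Every test below was therefore made within a set, except where the difference between sets is itself the result. DUSP6, a gene driven by MEK signalling, was at 11.5 to 16.2 CPM with trametinib and 156 to 165 CPM in controls in SW48 set 1, and at 64.7 to 73.7 against 350 to 380 CPM in SW48 set 2. In SW620 set 2 it was at 156 to 296 CPM with trametinib and 265 to 299 CPM in controls, and these ranges overlapped.

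In the untreated cells of set 2 the members were most abundant in SW620 and least abundant in BT-20. They made up 15.3% ± 0.807 of counts in SW620 controls, 13.97% ± 0.0779 in MKN-45, 11.9% ± 0.328 in SW48, 11.9% ± 0.555 in BT-474, 10.5% ± 1.08 in NCI-N87 and 8.72% ± 0.150 in BT-20 (SD, n = 3 each). SW48 and BT-474 could not be told apart within their spread, and the range of NCI-N87, 9.43% to 11.6%, reached that of BT-474, 11.6% to 12.6%. RPS29, a zinc-binding protein of the small subunit, had the highest mean over the lines, at 2928 CPM ± 88.1 in BT-20 and up to 6033 CPM ± 198 in MKN-45. Levels are CPM (counts scaled to a common library size by TMM) and are not corrected for length, since each transcript gives reads from its end only.

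Tested with edgeR over the 18 control libraries of set 2, all 82 members that passed the filter on low counts differed among the 6 lines at an adjusted p under 0.05 (called, below), where 97.1% of all 15211 genes tested did. Against the mean of the other 5 lines, SW620 had 72 members higher and 7 lower, where 37.1% and 26.4% of all genes were. MKN-45 had 51 higher and 15 lower (34.2% and 28.9% of all genes). SW48 had 26 higher and 21 lower (33.9% and 26.5%), and BT-474 had 22 higher and 34 lower (33.7% and 27.2%). In NCI-N87 6 were higher and 52 lower (34.5% and 27.4%), and in BT-20 6 were higher and 71 lower (37% and 30.4%). The median member stood 0.62 above the other lines in SW620 and 0.70 below them in BT-20 on the log2 scale (median log2 difference 0.62 and -0.70), where the median of all genes stood at 0.05 and 0.03. The median SD of the 6 line means was 0.51 on the log2 scale for members and 0.61 for the 8131 genes whose mean log2 CPM reached 4. RPS18 was the most even member, with an SD of 0.28, at 1256 CPM ± 71.6 in BT-20 and 2095 CPM ± 156 in SW48.

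The 6 members that varied most over the lines at that level were RPL19, RPL23, RPL22L1, RPS28, RPS27L and RPS3, and each had its own pattern. RPL19, a large subunit protein that reaches across to the small subunit, had 13017, 11366 and 11897 CPM in BT-474 and 4981, 5137 and 5206 CPM in NCI-N87. In the other 4 lines RPL19 averaged between 1106 CPM ± 28.2 (BT-20) and 1965 CPM ± 318 (MKN-45). RPL23, a large subunit protein that can bind MDM2, followed the same order, with 14571, 13383 and 13702 CPM in BT-474, 7099, 6572 and 7303 CPM in NCI-N87, and means of 1320 CPM ± 36.9 to 2781 CPM ± 153 elsewhere. For both genes the libraries of BT-474 and of NCI-N87 lay above every untreated library of the other lines in set 2. In set 1, on library-total CPM, 5 of the 6 SW620 libraries held RPL19 at 4289 to 4491 CPM and the sixth, control replicate 3, at 729 CPM, and all 6 held RPL23 at 4314 to 5665 CPM. ERBB2 was at 23.1 to 49.6 CPM in those 5 and at 109 CPM in control replicate 3. In SW48 of set 1 ERBB2 was at 901 to 988 CPM in controls and at 1014 to 1217 CPM with trametinib. There RPL19 was at 2214 to 2418 CPM in controls and 1427 to 1665 CPM with trametinib. RPL23 was at 2557 to 2809 CPM in the same controls and 1542 to 1944 CPM with trametinib.

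RPL22L1, the paralog of RPL22, was highest in SW48, where the libraries held 707, 657 and 748 CPM, against means of 60.5 CPM ± 3.57 in SW620 to 111 CPM ± 18.4 in NCI-N87. RPL22 itself, an RNA-binding large subunit protein, was among the lower members in SW48 at 203 CPM ± 20.3, beside 164 CPM ± 10.1 in BT-20 and 713 CPM ± 139 in SW620. RPS28, a small subunit protein at the mRNA exit, had 2748 CPM ± 211 in SW48, 1986 CPM ± 173 in MKN-45, 1388 CPM ± 12.03 in BT-20, 700 CPM ± 21.8 in SW620, 457 CPM ± 20.5 in BT-474 and 263 CPM ± 2.97 in NCI-N87, with no overlap between neighbours in this order. RPS27L, the paralog of RPS27, was highest in MKN-45 with 824, 997 and 840 CPM, and averaged 108 CPM ± 1.88 in BT-474 to 331 CPM ± 24.0 in SW48 elsewhere. RPS3, at the mRNA entry of the small subunit, was lowest in BT-20 at 876 CPM ± 32.4, where the other lines held 1966 CPM ± 369 or more on average. In SW620 its 3 libraries held 4577, 4540 and 6451 CPM, so its order against MKN-45 (5364 to 5788 CPM) was not settled by their spread.

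**Figure D1:**
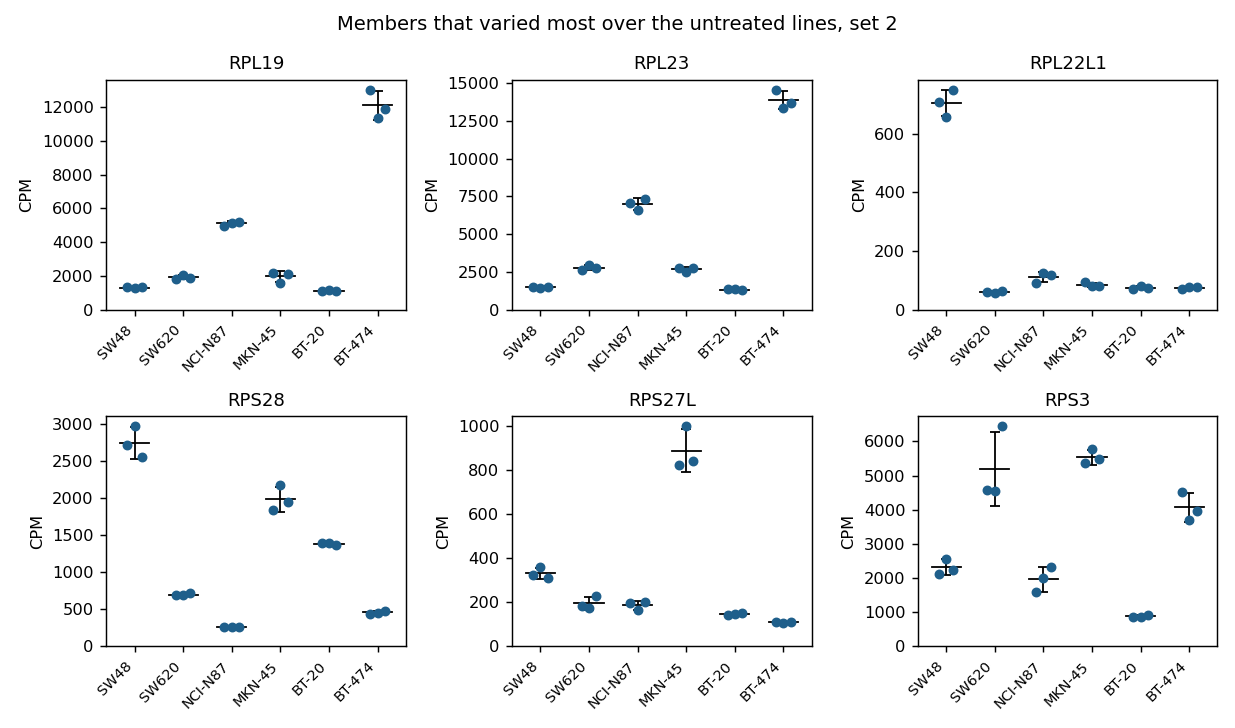
CPM (TMM-scaled, y axes linear from 0) of the 6 members whose line means spread most, in the 3 control libraries of each of 6 lines of set 2. Points are libraries and bars are the mean and SD. RPL19 and RPL23 stand high in NCI-N87 and BT-474 alone, RPL22L1 in SW48 and RPS27L in MKN-45.

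RPL19 and RPL23 are neighbours of ERBB2 on chromosome 17, the receptor gene amplified in NCI-N87 and BT-474. This look at their position was chosen after their levels were seen. In RefSeq's GRCh38 gene table RPL23 lies at 38847860 to 38853721 and RPL19 at 39200283 to 39204732, which is 840 kb and 488 kb before the start of ERBB2. With NCI-N87 and BT-474 set against the other 4 lines, the log2 difference was 2.33 ± 0.05 (SE) for RPL23, 2.36 ± 0.06 for RPL19 and 4.2 for ERBB2. All 17 genes tested from RPL23 to ERBB2 were called at least 2-fold higher in that contrast, as were 41 of 62 genes within 2000 kb of ERBB2 (66.1%), 90 of 765 on the rest of the chromosome (11.8%) and 14.3% of all genes. The stretch from RPL23 to ERBB2 was set by genes already seen high, and these count among the 17. The contrast averages NCI-N87 and BT-474, so a gene high in either line alone can pass, and not all 17 were high in both. PPP1R1B had 869 CPM in NCI-N87, 6.78 CPM in BT-474 and 183 CPM in MKN-45. PNMT had 0.906 CPM in NCI-N87, 11.9 CPM in BT-474 and 2.10 CPM in SW620. The other members on chromosome 17 did not share the rise of RPL23 and RPL19, with log2 differences of -0.99 for RPL26, -0.02 for RPL23A, -0.38 for RPL27 and -0.54 for RPL38. Over all members the same contrast had 12 higher and 52 lower, where 32.5% and 29.4% of all genes were. Without these 2 genes the members' share of counts in untreated cells was 9.55% ± 0.389 in BT-474 and 9.25% ± 1.06 in NCI-N87. Neither gene was called with afatinib in NCI-N87 or BT-474. In BT-474 RPL19 had 11573, 11938 and 10018 CPM with afatinib and 12391, 10835 and 11267 CPM in controls (log2 fold change -0.04 ± 0.08, adjusted p = 0.71), and the groups overlapped. DNA copy number was not measured here.

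**Figure D2:**
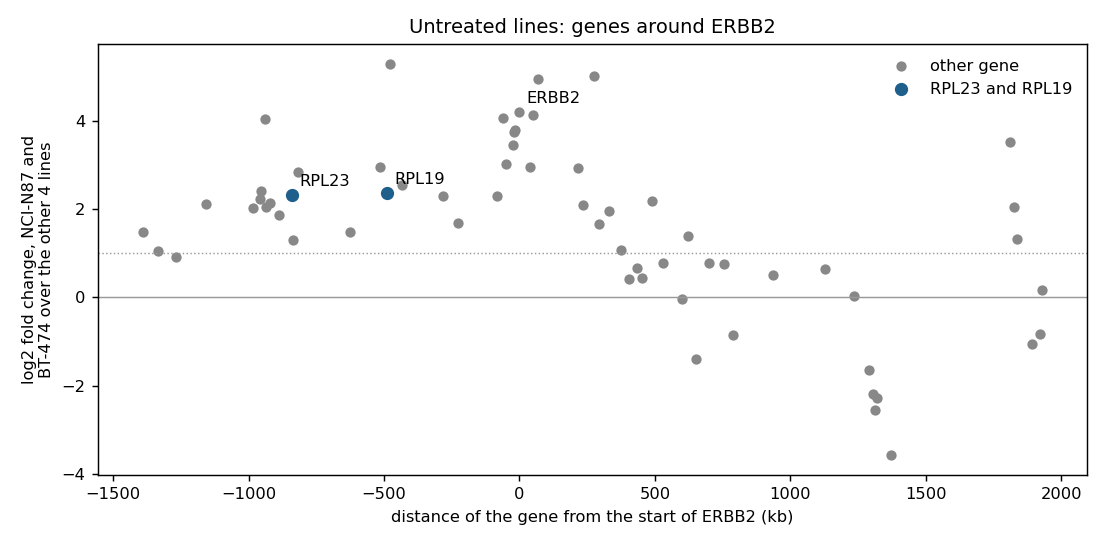
Log2 fold change (y axis, NCI-N87 and BT-474 over the other 4 untreated lines of set 2) of each gene tested within 2000 kb of ERBB2, against its distance from the start of ERBB2 in kb (x axis). The dotted line marks 2-fold. RPL23 (2.33) and RPL19 (2.36) stand among the 17 genes from RPL23 to ERBB2, which all lie above it. That stretch was set after the levels of RPL23 and RPL19 were seen.

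The members' share of all counts had no overlap between treated and control libraries in 5 of the 10 drug comparisons. With trametinib it was 9.46% ± 0.337 in SW48 of set 1, against 12.1% ± 0.193 in controls, lower in every treated library. In SW48 of set 2 the order was the opposite, with 13.3% ± 0.459 with trametinib and 11.9% ± 0.328 in controls. Palbociclib gave 13.4% ± 0.368 in SW620, against 15.3% ± 0.807 in controls, and afatinib gave 13.98% ± 0.819 in BT-474, against 11.9% ± 0.555 in controls. In SW48 palbociclib gave 12.7% ± 0.512, against 11.9% ± 0.328, and its lowest library and the highest control both stood at 12.1%. A share is relative to all other counts of the library: these data cannot tell less ribosomal protein mRNA per cell from more of other mRNAs. Mitochondrial ribosomal RNA, a sign of RNA state and library make-up, also differed in mean between groups. It held 5.09% of counts with trametinib and 2.49% in controls in SW48 set 1, 2.63% and 1.34% in SW48 set 2, 3.65% with palbociclib against the same 1.34%, 3.05% with palbociclib and 2.15% in controls in SW620, and 8.83% with afatinib and 10.9% in controls in BT-474. The libraries did not overlap in the SW48 comparisons and overlapped in SW620 (controls up to 3.51%) and in BT-474 (controls from 9.38%, afatinib up to 9.73%). Its part in the results was not tested.

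**Figure D3:**
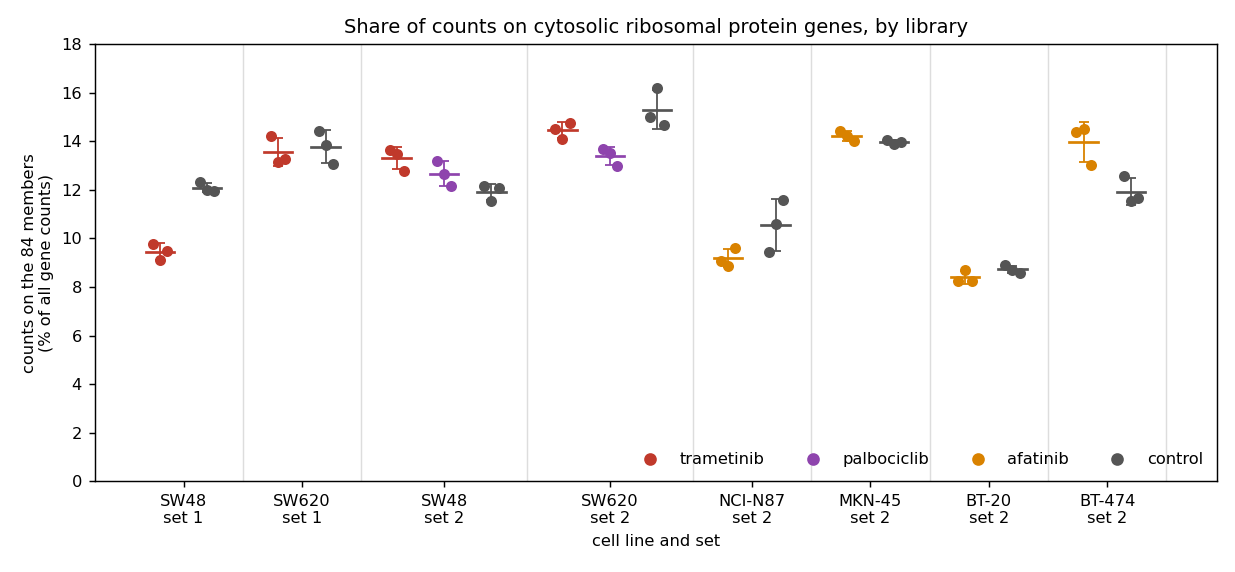
Percent of each library's gene counts that fell on the 84 members (y axis, from 0), by line and set (x axis), with the drug groups left of their controls. Points are libraries, bars the mean and SD of 3; SW48 with trametinib lies below its controls in set 1 (9.46% against 12.1%) and above them in set 2 (13.3% against 11.9%).

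**Figure D4:**
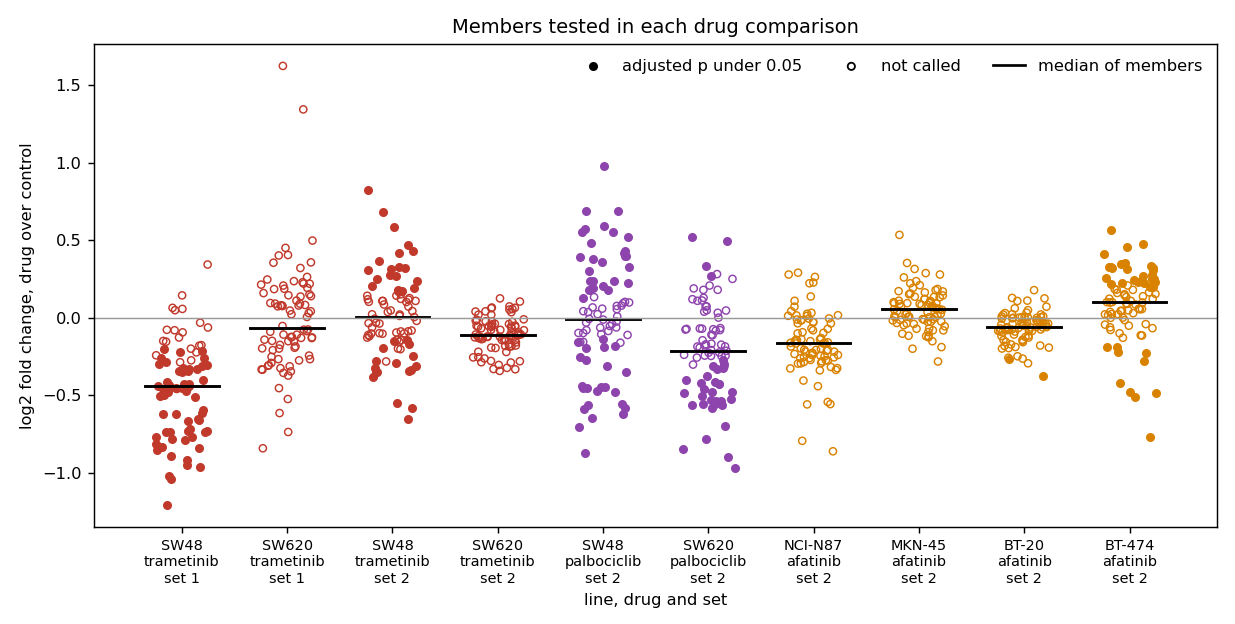
Log2 fold change, drug over control, of each member tested (points) in the 10 drug comparisons, with the median of the members as a bar; filled points had an adjusted p under 0.05. All 60 called members lie below 0 in SW48 with trametinib in set 1, while called members lie on both sides of 0 in SW48 of set 2 and in BT-474.

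In SW48 of set 1, most of the ribosome's genes were lower with trametinib. Of 81 members tested, 60 were lower and 0 higher at an adjusted p under 0.05 (edgeR quasi-likelihood test, Benjamini-Hochberg), where 19.4% of all 12235 genes were lower, 16% higher and 35.4% either. Both subunits took part, with 24 of 32 small subunit and 36 of 49 large subunit members lower. The median member changed by -0.44 on the log2 scale, and the median of all genes by 0.01. RPL12, which sits at the base of the stalk that recruits elongation factors, had 603, 516 and 584 CPM with trametinib and 1339, 1231 and 1356 CPM in controls. Its log2 fold change of -1.20 ± 0.08 (SE, adjusted p = 3.5e-05) was the largest of any called member. RPS29 had 3949, 3342 and 4292 CPM with trametinib and 8188, 7679 and 7922 CPM in controls (-1.04 ± 0.09, adjusted p = 1.16e-04). RPL36, a large subunit protein, had 592, 498 and 563 CPM against 1196, 1137 and 1020 CPM (-1.02 ± 0.09). These 3 were the called members past 2-fold. In all 3 genes every treated library lay below every control.

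Of 9 members named for their known roles 7 were lower, where 74.1% of all members were. RPS6, the substrate of the S6 kinases, had 1716, 1343 and 1523 CPM with trametinib and 2637, 2443 and 2552 CPM in controls (-0.74 ± 0.09, adjusted p = 7.07e-04). The stalk proteins RPLP0, RPLP1 and RPLP2 changed by -0.51, -0.42 and -0.35, RPL5 by -0.50, RPSA (the laminin receptor precursor) by -0.73 and RPS27A, a fusion with ubiquitin, by -0.31, all called. RPL11, the partner of RPL5, changed by -0.22 ± 0.08 and was not called (adjusted p = 0.067), nor was RPL41, the smallest ribosomal protein (-0.18 ± 0.09, adjusted p = 0.161). Without SW48 trametinib set 1 replicate 2, the library nearer to NCI-N87 than to SW48, 53 members were lower and 0 higher. Scaled to library totals only, which moved the median of all genes by 0.14, 49 were lower and 3 higher. When every group of the set was fitted together, 28 of 82 were lower and 0 higher, among 2229 of 14525 genes called. In the treated libraries 44.7% of reads had not aligned, against 29.03% in controls, and the part of this in the result was not tested.

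In SW48 of set 2 the same drug gave no common direction. Of 81 members 19 were higher and 17 lower with trametinib, where 30% and 30.1% of all 12688 genes were and 60.1% were called either way; the median member changed by 0.00. Small subunit genes split 9 to 8 and large subunit genes 10 to 9. RPL7A, a large subunit protein, rose to 1801, 1661 and 1495 CPM with trametinib, against 982, 851 and 973 CPM in controls (0.82 ± 0.07, adjusted p = 1.09e-06). RPS27, a zinc-finger protein of the small subunit, had 927, 776 and 666 CPM against 522, 465 and 489 CPM (0.68 ± 0.10, adjusted p = 5.24e-05). RPL39, which lines the exit tunnel for the nascent chain, had 234, 251 and 280 CPM against 179, 196 and 133 CPM (0.59 ± 0.12). RPS15, of the small subunit head, had 1970, 2043 and 1928 CPM against 1488, 1510 and 1287 CPM (0.47 ± 0.06). None of these 4 had treated and control libraries that overlapped.

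At the other end, RPL12 had 828, 794 and 745 CPM with trametinib and 1163, 1131 and 1176 CPM in controls (-0.55 ± 0.06, adjusted p = 2.39e-06). RPL7L1, a paralog of RPL7 found in ribosome precursors, had 71.4, 68.6 and 67.7 CPM against 102, 102 and 123 CPM (-0.65 ± 0.08), and RPS27L had 222, 245 and 260 CPM against 354, 392.3 and 340 CPM (-0.58 ± 0.07). RPS15A also passed the test (-0.39 ± 0.14, adjusted p = 0.0299), but its highest treated library, 554 CPM, lay above its lowest control, 466 CPM. RPS6 fell by 0.31 on the log2 scale and RPL11 rose by 0.32; the stalk genes, RPL5, RPSA and RPL41 were not called. With library totals in place of TMM the split became 37 higher and 11 lower, the median of all genes moving by 0.13. Without SW48 control set 2 replicate 2 it was 17 higher and 26 lower, so the balance of directions in this comparison rests on the scaling and on single libraries.

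The difference between the sets was tested directly, in a comparison added after the data were seen. The trametinib effect was lower in set 1 than in set 2 for 55 of 81 members and higher for 2, where 10.1% and 9.61% of all genes were (19.7% either way), and the median difference was -0.45. RPL23 (-1.11 ± 0.11), RPS4X (-1.08 ± 0.12), RPL14 (-1.05 ± 0.14) and RPS29 (-1.03 ± 0.11) differed most, with adjusted p-values from 2.42e-05 to 2.42e-04. RPL23 had 1867, 1453 and 1592 CPM with trametinib and 2984, 2643 and 2870 CPM in controls in set 1. In set 2 it had 2086, 2051 and 1996 CPM with trametinib and 1670, 1577 and 1671 CPM in controls. RPL7L1 (0.62) and RPL22L1 (0.32) were the members whose effect was higher in set 1. RPL22L1's call was lost under 11 alternatives and RPL7L1's when every group was fitted together, where 35 members were lower and 0 higher among 1567 of 16504 genes called. Of the 60 members lower in set 1, 14 (23.3%) were also lower in set 2, where they made up 82.4% of the 17 lower members; 21% of all members were lower in set 2 and 74.1% in set 1. RPL12, RPL36 and RPS6 were among them. Another 9 of the 60 (15%) were higher in set 2, 47.4% of the 19 higher there, where 23.5% of all members were higher: RPL14, RPL23, RPL27A, RPL34, RPS3, RPS4X, RPS20, RPS24 and RPS27. The call of RPS27 in set 1 was lost under 7 alternatives, at -0.29 to -0.12. The labels do not say how the sets differ in dose, time or culture.

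**Figure D5:**
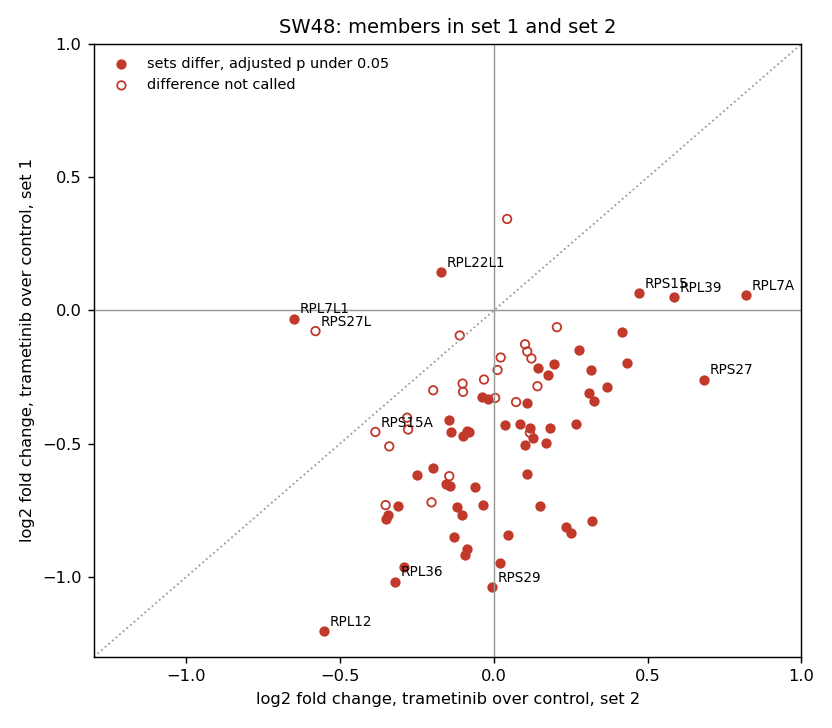
Log2 fold change of each member, trametinib over control, in SW48 of set 1 (y axis) and of set 2 (x axis), with the line of equal change dotted. Filled points are members whose effect differed between the sets (adjusted p under 0.05); 55 of the 57 lie below the line.

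With palbociclib in SW48 members were called in both directions, at shares near those of all genes. Of 81 members 27 were higher (33.3%) and 24 lower (29.6%), where 28.3% and 29.2% of all 12690 genes were (57.5% either way). RPL39 had 399, 318 and 262 CPM with palbociclib and 175, 191 and 130 CPM in controls (0.98 ± 0.14, adjusted p = 3.1e-05). RPS28 had 5059, 4755 and 4356 CPM against 2891, 3176 and 2723 CPM (0.69 ± 0.07), and RPL7A had 1551, 1504 and 1343 CPM against 956, 829 and 948 CPM (0.69 ± 0.07). RPL41 rose by 0.59, and the stalk genes by 0.13 (RPLP0), 0.23 (RPLP1) and 0.40 (RPLP2); the call of RPLP0 was lost under 9 alternatives. RPS7, a small subunit protein that can bind MDM2, had 544, 574 and 502 CPM with palbociclib and 1065, 786 and 1111 CPM in controls (-0.87 ± 0.10, adjusted p = 4.56e-06). RPL4, whose loop reaches into the exit tunnel, had 622, 672 and 598 CPM against 1016, 875 and 1076 CPM (-0.65 ± 0.08). RPS15A fell by 0.71, RPL7L1 by 0.62, RPS27A by 0.48 and RPS6 by 0.35.

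Trametinib and palbociclib shared their controls, so the 2 drugs were set against each other in SW48 directly. With trametinib 22 members were higher and 20 lower than with palbociclib, where 21% and 20.9% of all genes were (41.9% either way). With library totals the split was 33 higher and 16 lower. RPS27L was lower with trametinib by -0.64 ± 0.07 (adjusted p = 6.43e-06), followed by RPL41 (-0.47) and RPL39 (-0.39, a call lost under 5 alternatives, at -0.40 to -0.22). RPS7 (0.59 ± 0.10), RPL26 (0.52), RPS12 (0.48) and RPL13A (0.42) were higher with trametinib. RPS27L had 222, 245 and 260 CPM with trametinib and 388, 354 and 367 CPM with palbociclib, each in the scaling of its own control comparison.

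SW620 cells gave no called member with trametinib in either set. In set 1 0 of 82 members and 0% of all 13081 genes passed the edgeR test; 1 member and 366 genes had an unadjusted p under 0.05, and DESeq2 called 0 members and 14 genes. Left out, SW620 control set 1 replicate 3 took no call away and gave none. That library held 4540 CPM of RPL18, 98.3 CPM of RPS27 and 790 CPM of RPL19, where the other 2 controls held 1420 and 1288, 839 and 775, and 4375 and 4334 CPM. RPS27L had 182, 174 and 243 CPM with trametinib and 47.6, 82.5 and 106 CPM in controls, without overlap, at a log2 fold change of 1.34 ± 0.32 and an adjusted p of 0.919. In set 2 0 of 81 members and 0% of all 12919 genes passed; 6 members and 2204 genes had an unadjusted p under 0.05, and DESeq2 called 0 members of 208 genes. Without SW620 trametinib set 2 replicate 1, 882 genes and 0 members were called. The median member changed by -0.11, and no member by more than 0.34 in either direction. RPL5 had 2718, 2268 and 2420 CPM with trametinib and 2819, 3516 and 2811 CPM in controls (-0.30 ± 0.12, adjusted p = 0.267).

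With palbociclib SW620 moved mostly downward. Of 81 members 29 were lower and 4 higher, where 17.4% and 17.6% of all 13068 genes were (35% either way), and the median member changed by -0.21. Of the lower members 10 belonged to the small and 19 to the large subunit. RPS7 had 697, 676 and 675 CPM with palbociclib and 1328, 1696 and 980 CPM in controls (-0.97 ± 0.16, adjusted p = 8.92e-04). RPL4 had 719, 673 and 707 CPM against 1267, 1564 and 1087 CPM (-0.90 ± 0.12). RPL26, a large subunit protein, had 2063, 2168 and 1880 CPM against 3412, 4379 and 3205 CPM (-0.85 ± 0.12). RPL5 had 1733, 1890 and 1675 CPM against 2815, 3508 and 2784 CPM (-0.78 ± 0.11, adjusted p = 3.44e-04), RPSA fell by 0.51 and RPS27A by 0.53. Treated libraries lay below controls in all of these, and the controls were the more spread group. RPL39 had 595, 778 and 599 CPM with palbociclib and 400, 413 and 561 CPM in controls (0.52 ± 0.14, adjusted p = 0.0157), and RPS26, at the mRNA exit, had 110, 121 and 115 CPM against 78.2, 91.7 and 75.9 CPM (0.50 ± 0.09). RPS9 (0.33) and RPL22L1 (0.27, adjusted p = 0.0355) were the others higher. The call of RPL39 was lost under 3 alternatives, at 0.38 to 0.44. RPL11, RPS6, RPL41 and the stalk genes were not called.

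Between the lines, 16 members were lower with palbociclib in both, which is 66.7% of the 24 lower in SW48 and 55.2% of the 29 lower in SW620, where 29.6% of all members were lower in SW48 and 35.8% in SW620. RPL3, RPL4, RPL7L1, RPL12, RPL26, RPS7 and RPS27A were among them. RPL39 and RPS9 were higher in both, though the call of RPL39 in SW620 was lost under 3 alternatives. RPL23 was higher in SW48 and lower in SW620, and RPL22L1 lower in SW48 and higher in SW620; RPL22L1's call was lost under 7 alternatives in SW48 and 8 in SW620. The difference itself, SW620 minus SW48, was lower for 26 members and higher for 2, where 11.2% and 14.5% of all genes were (25.7% either way). RPL7A (-0.88 ± 0.12), RPL5 (-0.72 ± 0.13), RPS27 (-0.66 ± 0.17) and RPL22 (-0.65 ± 0.16) differed most, while RPL22L1 (0.44 ± 0.10) and RPS26 (0.43 ± 0.12) went the other way. The call of RPS26 in this difference was lost under 3 alternatives. RPL22 had 289, 260 and 284 CPM with palbociclib and 221, 193 and 235 CPM in controls in SW48, and 534, 538 and 527 CPM against 673, 776 and 521 CPM in SW620. For trametinib in set 2 the difference was lower in SW620 for 13 members and higher for 2, where 12.9% and 15.3% of all genes were (28.2% either way). RPL39 (-0.89 ± 0.20), RPL7A (-0.76 ± 0.13) and RPS27 (-0.69 ± 0.18) were lower and RPS27L (0.67 ± 0.14) and RPS6 (0.32 ± 0.10) higher.

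In SW620 trametinib and palbociclib were again compared directly. With trametinib 31 members were higher and 10 lower than with palbociclib, where 15.9% and 16.7% of all genes were (32.6% either way). RPS7 (0.85 ± 0.09), RPS3A (0.64 ± 0.11), RPL4 (0.64 ± 0.09) and RPSA (0.63) were the highest, with RPS7 at 1331, 1089 and 1249 CPM with trametinib and 697, 676 and 675 CPM with palbociclib, each in the scaling of its own control comparison. RPL39 (-0.83 ± 0.11, adjusted p = 3.72e-04), RPL22L1 (-0.40), RPS26 (-0.35) and RPL38 (-0.32) were the lowest.

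Of the 4 lines given afatinib, each fitted on its own 6 libraries, BT-474 alone had more than 2 members called. In NCI-N87 0 of 82 members and 0% of all 12472 genes passed the edgeR test, 6 members and 1523 genes had an unadjusted p under 0.05, and DESeq2 called 1 member of 37 genes. RPS27 stood lowest of the genes named here, with 239, 249 and 255 CPM with afatinib and 303, 508 and 476 CPM in controls (-0.79 ± 0.19, adjusted p = 0.372), and the groups did not overlap. The count turned on the fit and on 1 control. When every group of the set was fitted together, 17 members were lower and 0 higher, among 1426 of 16304 genes called. Without NCI-N87 control set 2 replicate 1, 21 members were lower and 2 higher, among 2108 of 12850 genes called. Mitochondrial ribosomal RNA was at 8.15% of counts in that control and at 3.39% and 3.18% in the other 2. In the afatinib libraries it was at 10.3%, 10.3% and 4.96%. With that control left out, the groups did not overlap in this measure, whose part in the calls was not tested. MKN-45 had 0 of 82 members and 0% of all 12358 genes called, while 8 members and 664 genes passed an unadjusted p of 0.05 and DESeq2 called 0 members. Its RPS27L had 732, 657 and 656 CPM with afatinib and 777, 919 and 792 CPM in controls (-0.28 ± 0.09, adjusted p = 0.817). The difference between these lines, NCI-N87 minus MKN-45, had 0 members called where 0.00725% of all genes were higher, 0.00725% lower and 0.0145% either. DESeq2 called 2 members of 36 genes there, and 15 members had an unadjusted p under 0.05. Without NCI-N87 control set 2 replicate 1, 14 members were lower and 2 higher, among 1315 of 14143 genes called.

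BT-20 had 2 lower members of 82 and 0 higher, where 0.312% and 0.273% of all 12810 genes were (0.585% either way). RPL32, a large subunit protein, had 1282, 1303 and 1145 CPM with afatinib and 1605, 1609 and 1616 CPM in controls (-0.37 ± 0.06, adjusted p = 0.0205). RPL18, also of the large subunit, had 973, 923 and 976 CPM against 1159, 1126 and 1168 CPM (-0.27 ± 0.05, adjusted p = 0.0441). Neither pair of groups overlapped, yet both calls were lost when any 1 of the 3 controls was left out.

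In BT-474 more members were higher than lower. Of 82 members 26 were higher and 10 lower with afatinib, where 20.9% and 21.8% of all 12768 genes were (42.7% either way), and the median member changed by 0.10. The higher members were 14 of 32 small subunit and 12 of 50 large subunit genes. RPS27 had 1372, 1212 and 982 CPM with afatinib and 802, 837 and 771 CPM in controls (0.56 ± 0.10, adjusted p = 6.27e-04). RPL18 had 1456, 1614 and 1388 CPM against 1204, 1033 and 963 CPM (0.48 ± 0.08), and RPS21, of the small subunit, had 1254, 1126 and 1134 CPM against 861, 865 and 835 CPM (0.46 ± 0.06, adjusted p = 7.83e-05). These groups did not overlap. RPS26 had 55.1, 52.6 and 41.4 CPM with afatinib and 69.2, 71.5 and 67.8 CPM in controls (-0.49 ± 0.10), and RPL41 had 426, 393 and 441 CPM against 600, 576 and 513 CPM (-0.42 ± 0.07). RPS6 (0.20) was higher and RPS27A (-0.23) lower, while RPL5, RPL11, RPSA and the stalk genes were not called. The call of RPS6 was lost under 5 alternatives, at 0.15 to 0.20, and that of RPS27A under 3, at -0.23 to -0.10. Scaled to library totals, which moved the median of all genes by 0.14, 50 members were higher and 4 lower. Without BT-474 afatinib set 2 replicate 2 or BT-474 control set 2 replicate 2, 17 were higher and 7 lower. When every group of the set was fitted together, 14 were higher and 4 lower, among 4053 of 16304 genes called.

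Tested as a difference, the effect of afatinib in BT-474 minus that in BT-20 was higher for 24 members and lower for 5, where 10.1% and 13.6% of all genes were (23.7% either way); with library totals the split was 40 and 3. RPL18 (0.73 ± 0.10, adjusted p = 8.43e-05), RPS14 (0.57 ± 0.09), RPL26 (0.51 ± 0.11) and RPL27A (0.49 ± 0.10) stood highest. RPS14, a small subunit protein, had 2162, 2364 and 2265 CPM with afatinib and 1989, 1759 and 1657 CPM in controls in BT-474, and 1488, 1552 and 1452 CPM against 1717, 1819 and 1835 CPM in BT-20. RPS26 (-0.68 ± 0.13), RPL7L1 (-0.53 ± 0.14), RPL26L1 (-0.50 ± 0.17) and RPL41 (-0.50 ± 0.17) stood lowest among members whose mean log2 CPM reached 4.

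The 7 paralog members differed in direction between comparisons. RPL3L and RPL10L, used in muscle and in testis, had at most 8 counts and 1 count in any library and entered no drug comparison. RPL39L, the testis-enriched form of RPL39, was at or under 0.993 CPM in every untreated SW48 and SW620 library of set 2 and averaged 13.6 CPM ± 0.807 in untreated BT-474. In BT-474 RPL39L had 6.84, 8.03 and 7.87 CPM with afatinib and 13.9, 12.5 and 12.6 CPM in controls (-0.77 ± 0.15, adjusted p = 0.00143), while RPL39 had 145, 154 and 137 CPM against 142, 118 and 134 CPM and was not called. RPL7L1 was lower in 4 comparisons: -0.65 with trametinib and -0.62 with palbociclib in SW48 of set 2, -0.70 with palbociclib in SW620 and -0.51 with afatinib in BT-474. Its parent RPL7 was called in none of these 4 (0.14, 0.02, -0.22 and -0.08), and was lower in SW48 of set 1 (-0.21, adjusted p = 0.0424, a call lost under 11 alternatives), where RPL7L1 was not called (-0.03).

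RPL22L1 and RPL22 took opposite signs in BT-474 with afatinib, where RPL22L1 had 94.0, 92.8 and 97.9 CPM against 67.8, 74.0 and 71.9 CPM in controls (0.41 ± 0.07, adjusted p = 4.44e-04) and RPL22 had 266, 254 and 231 CPM against 265, 311 and 332 CPM (-0.28 ± 0.08, adjusted p = 0.0195). The call of RPL22 in BT-474 was lost under 5 alternatives, at -0.28 to -0.15, and its groups overlapped. With palbociclib in SW48 the signs were the reverse, RPL22 at 0.36 and RPL22L1 at -0.16 (adjusted p = 0.0349). RPS27L and RPS27 parted in SW48 with trametinib in set 2 (-0.58 and 0.68) and moved together in BT-474 (0.35 and 0.56). RPL26L1 was higher with palbociclib in SW48 (0.39, with RPL26 at -0.44) and lower with afatinib in BT-474 (-0.48, with RPL26 at 0.23). In BT-474 the calls of RPL26L1 and RPL26 were lost under 5 and 2 alternatives. The difference between a paralog and its parent was not itself tested in any of these pairs.

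Companion genes were counted beside the members in the same fits. All genes called either way were 35.4% with trametinib in SW48 set 1, 60.1% in SW48 set 2, 57.5% and 35% with palbociclib in SW48 and SW620, and 42.7% with afatinib in BT-474. Among 15 other TOP mRNAs 10 were lower and 1 higher in SW48 with trametinib in set 1, with the elongation factors EEF1A1 at -1.46 and EEF2 at -1.16; the 1 higher was VIM (2.23), at 8.35 to 9.95 CPM with trametinib and 1.57 to 2.25 CPM in controls. In SW48 of set 2 trametinib had 4 higher and 4 lower, with EEF1A1 at -0.32 and EEF2 not called (-0.09), and palbociclib had 3 higher and 6 lower. In SW620 palbociclib had 10 lower and 1 higher (EEF1D -0.92, NPM1 -0.80), and in BT-474 afatinib had 3 lower and 2 higher (NPM1 -0.51, EEF2 0.38). Of 3 tested ribosomal protein genes outside the symbol rule, 2 were lower and 0 higher with trametinib in SW48 set 1. In SW48 set 2 trametinib had 1 lower and 2 higher. Palbociclib had 0 lower and 2 higher in SW48 and 0 and 1 in SW620, and none was called with afatinib in BT-474. FAU, a fusion with a ubiquitin-like protein, was the 1 lower in set 2 (-0.34) and was also lower in set 1 (-0.40).

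Of 10 genes that control the family, 3 were lower and 1 higher with trametinib in SW48 set 1 and 7 and 2 in set 2; palbociclib had 7 lower and 1 higher in SW48 and 3 and 1 in SW620, and afatinib had 4 and 1 in BT-474. MYC was lower with trametinib in SW48 (-1.64 in set 1 and -2.0 in set 2) and with palbociclib in SW48 (-1.33) and SW620 (-0.43), and was not called in BT-474 with afatinib (0.11). MXD4, a repressor that competes with MYC for MAX, was higher in the same comparisons (1.02, 1.80, 2.47 and 1.20) and in BT-474 (0.61). EIF4EBP1, an mTORC1 target that holds back cap-dependent translation, was lower in all 5 (-1.50, -2.21, -1.51, -0.98 and -1.03). LARP1 was not called in SW48 set 1 (0.03) and was lower in the other 4 (-1.04, -1.21, -0.43 and -0.74). Of 8 chaperones and assembly factors for ribosomal proteins, 2 were lower and 1 higher with trametinib in SW48 set 1, and 6 and 1 in set 2. Palbociclib had 4 lower and 1 higher in SW48 and 2 and 1 in SW620, and afatinib had 3 and 0 in BT-474. LTV1 was lower in all 5 comparisons (-0.38, -0.88, -1.02, -0.59 and -0.40). In the other 5 drug comparisons no gene of these lists was called; MYC there was lowest in SW620 with trametinib in set 2, at 107, 84.1 and 54.9 CPM against 156, 156 and 142 CPM (-0.88 ± 0.20, adjusted p = 0.218), and the groups did not overlap. Among members, the change was only weakly related to transcript length: Spearman correlations over the members tested ran from -0.20 to 0.07 in the 10 drug comparisons, as a description, since members share their libraries.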

How the data were processed

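Raw counts of reads per gene were deposited by the authors, made per the submitters' processing notes with Trimmomatic, STAR and featureCounts on hg38, without versions. Kit and RNA input are per the labels' protocols. Set 1 also lists reads given to no gene, 39.7% to 73.8% of each library, which were kept out. These include reads without a unique alignment, 11.9% to 23.7% of each library, and reads listed as ambiguous. Columns of set 1 repeated in the second table were used once. No dose, time or strand setting is given in the sources used here. Outside set 1, the handling of reads that fit several genes is not given either.

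Each comparison used its own libraries: genes were kept by filterByExpr (minimum count 10, minimum total 15), scaled by TMM and tested with edgeR's quasi-likelihood test, with Benjamini-Hochberg adjustment over all genes tested and a threshold of 0.05. The standard error is the log2 fold change divided by the square root of F. Differences between lines, drugs or sets are contrasts in 1 fit. Levels are CPM on the comparison's TMM scale, or on that of the 18 controls of set 2 for untreated lines. A gene at 0 allows up to 3 counts in a library. Versions were R 4.3.3, edgeR 4.0.16, limma 3.58.1, DESeq2 1.42.0, Python 3.11.15, pandas 2.3.3 and matplotlib 3.10.9. The tests were also run on simulated counts with 2-fold changes and the same spread in every library. That check cannot speak for smaller changes or for libraries that stand apart.

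Genes were named by a rule: 7 paralogs with their parents, 9 members with known roles, the 4 highest and 4 lowest called members of each comparison whose mean log2 CPM reached 4, and the 6 that vary most over untreated lines; a few that it names are not reported here. The members and lists were chosen with earlier results of these data known. Alternatives were DESeq2 and its size factors, library totals, scaling without the members, no filter, 1 fit over all groups, a replicate block and each library left out.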

Additional observations from a re-analysis of the deposited data

Results flagged for a closer look

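The effects of a drug differed between lines, by a test of the difference itself (edgeR quasi-likelihood contrast, adjusted over all genes), for 19 results on members named by the rule. The rule named only members already called in that test, so that all 19 passed was fixed beforehand. In the order below, 18.5%, 34.6% and 35.4% of members tested were called either way, where 28.2%, 25.7% and 23.7% of all genes were. Values given for genes are differences of log2 fold changes ± SE with 3 libraries a group.

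For trametinib in SW620 minus SW48 of set 2, RPL39 differed by -0.89 ± 0.20 (adjusted p = 0.00427), RPL7A by -0.76 ± 0.13 (adjusted p = 7.57e-04) and RPS27 by -0.69 ± 0.18 (adjusted p = 0.0121). RPS27L differed by 0.67 ± 0.14 (adjusted p = 0.00303) and RPS6 by 0.32 ± 0.10 (adjusted p = 0.0266), the last lost under 11 alternatives.

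For palbociclib in SW620 minus SW48, RPL7A differed by -0.88 ± 0.12 (adjusted p = 7.06e-05), RPL5 by -0.72 ± 0.13 (adjusted p = 6.97e-04), RPS27 by -0.66 ± 0.17 (adjusted p = 0.00798) and RPL22 by -0.65 ± 0.16 (adjusted p = 0.00727). The paralog RPL22L1 differed by 0.44 ± 0.10 (adjusted p = 0.00365) and RPS26 by 0.43 ± 0.12 (adjusted p = 0.0158). The call of RPS26 was lost under 3 alternatives.

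For afatinib in BT-474 minus BT-20, RPL18 differed by 0.73 ± 0.10 (adjusted p = 8.43e-05), RPS14 by 0.57 ± 0.09 (adjusted p = 2.13e-04), RPL26 by 0.51 ± 0.11 (adjusted p = 0.00359) and RPL27A by 0.49 ± 0.10 (adjusted p = 0.00183). RPS26 differed by -0.68 ± 0.13 (adjusted p = 0.0014), RPL7L1 by -0.53 ± 0.14 (adjusted p = 0.013), RPL26L1 by -0.50 ± 0.17 (adjusted p = 0.0398) and RPL41 by -0.50 ± 0.17 (adjusted p = 0.0389). The calls of RPL26L1 and RPL41 were lost under 13 and 12 alternatives, and those of RPL7L1 and RPL27A under 3 and 1.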

How the results depend on the processing

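Counts are of members called, with all genes called in brackets. With all groups of a set in 1 fit, which shares 1 estimate of spread, SW48 with trametinib in set 1 had 28 (2229 of 14525), SW620 with trametinib in set 2 had 1 (631 of 16304), NCI-N87 had 17 (1426), BT-20 had 0 (12) and BT-474 had 18 (4053); the differences BT-474 minus BT-20, NCI-N87 minus MKN-45, SW48 trametinib minus palbociclib and set 1 minus set 2 had 12 (1944), 8 (438), 23 (3757) and 35 (1567 of 16504). Without a filter NCI-N87 had 2 (197 of 21027), BT-20 10 (497 of 20895) and NCI-N87 minus MKN-45 4 (140 of 22270). DESeq2 gave 1 (37), 4 (163) and 2 (36) for these, and 23 (4005) for trametinib in SW620 minus SW48. With library totals BT-20 had 1 (73) and trametinib in SW620 minus SW48 had 25 (3953). The cause was not tested. Leaving out 1 library gave 52 to 58 in SW48 set 1, 27 to 43 with trametinib and 45 to 57 with palbociclib in SW48 set 2, 24 to 48 in SW620 with palbociclib, 0 to 23 in NCI-N87, 0 to 3 in BT-20, 24 to 44 in BT-474, 18 to 31 for the palbociclib difference between lines, 0 to 16 for NCI-N87 minus MKN-45 and 27 to 37 for SW620 trametinib minus palbociclib. Same-numbered libraries of treated and control groups did not deviate together (correlations -0.158 to 0.121), so the numbers were not taken as pairs; with the replicate block the counts were 61 in SW48 set 1, 39 and 49 with trametinib and palbociclib in SW48 set 2, 28 in SW620 with palbociclib, 30 in BT-474 and 0 in BT-20. Of 118 named calls, 86 were kept under every alternative run and none reversed.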
